A study of Homo sapiens with 6 samples.

Results

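The ATG8 family and the autophagy proteins that work beside it were followed in HEK293 cells as mRNA. The genes were chosen by family and role, with earlier results of these data known. The 10 genes were the LC3 genes MAP1LC3A, MAP1LC3B and MAP1LC3B2, the GABARAP genes GABARAP, GABARAPL1 and GABARAPL2, the phosphoinositide-binding WIPI1 and WIPI2, and the cargo receptors SQSTM1 and NBR1. Each matched 1 row of a table of 63140 genes. HEK293 is an established human line from embryonic kidney. GSK-A1 is a small molecule that blocks the lipid kinase PI4KA, the enzyme behind most phosphatidylinositol 4-phosphate of the plasma membrane. HEK293 cultures grown in DMEM with fetal bovine serum were given GSK-A1 at 100 nM for 24 h at confluence or, as controls, dimethyl sulfoxide (DMSO), a common solvent. Each group held 3 libraries made from total RNA, labelled as biological replicates of 1 cell line, and no genetic change is named for either group. The comparison asks how these mRNAs stood when PI4KA was inhibited. Protein, lipidated LC3 and autophagic flux were not analysed here.

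In macroautophagy a double membrane grows around cargo and is delivered to the lysosome. ATG8 proteins resemble ubiquitin: ATG4 proteases trim them to a C-terminal glycine, and the ATG7, ATG3 and ATG5-ATG12-ATG16L1 machinery then links that glycine to phosphatidylethanolamine on the growing membrane. WIPI proteins bind phosphatidylinositol 3-phosphate made by the PIK3C3 kinase, and WIPI2 brings ATG16L1 to the site. SQSTM1 (p62) and NBR1 bind ubiquitinated cargo on one side and ATG8 proteins on the other, and are themselves degraded with the cargo.

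The end of the coding sequence holds the glycine that all ATG8 proteins share and shows how close some of these genes are. The last 45 bases, stop codon included, were read from GENCODE 29 transcripts. Capitals mark the last glycine codon in frame. The near-identity of MAP1LC3B and MAP1LC3B2 limits which reads can be assigned to which of these 2 genes.
MAP1LC3A: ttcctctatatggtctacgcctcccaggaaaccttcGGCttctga
MAP1LC3B: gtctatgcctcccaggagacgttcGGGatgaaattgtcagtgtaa
MAP1LC3B2: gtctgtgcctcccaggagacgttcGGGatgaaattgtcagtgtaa
GABARAP: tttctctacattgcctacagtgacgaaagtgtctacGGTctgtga
GABARAPL1: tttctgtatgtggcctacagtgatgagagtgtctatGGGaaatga
GABARAPL2: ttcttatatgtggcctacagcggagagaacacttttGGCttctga
The glycine was codon 120 in the LC3 genes and codon 116 in the GABARAP genes. It was followed by 5 further codons before the stop in MAP1LC3B and MAP1LC3B2 and by 1 in the other members. Over the whole coding sequence MAP1LC3B and MAP1LC3B2 were identical at 376 of 378 bases. They differed by C30G and A338G, counted from 1 at the start codon with the base of MAP1LC3B first. GABARAP and GABARAPL1 shared 76.8% of 354 aligned bases. GABARAPL2 shared 62.4% with GABARAP and 62.2% with GABARAPL1. MAP1LC3A shared 73.5% with MAP1LC3B.

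Total counts per library lay between 33040178 and 47777233. Libraries of 1 group correlated at 0.994 to 0.997 across tested genes, and GSK-A1 replicate 2 was the library farthest from its group, with 4.04% of its counts from mitochondrial genes against 5.12% to 5.68% in the other 5. VIM, KRT8, KRT18, NEFL and LIN28B, expressed in HEK293, were above 100 CPM (counts per 1000000 counts of the library, whose size was scaled by a TMM factor) in all 6 libraries. PTPRC, HBB, ALB, PECAM1 and ACTC1, which mark other cell types, had at most 8 counts in any library, and LUM at most 17. COL1A1, a collagen gene of fibroblasts, stood at 6.81 CPM with DMSO and 6.11 CPM with GSK-A1. NEFM, also listed for this line, had at most 13 counts, and PAX2 stood at 2.71 CPM with DMSO and 2.00 CPM with GSK-A1.

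Of the 10 genes, 9 had enough reads to test and 5 differed between the groups. GABARAPL1, MAP1LC3B, GABARAPL2 and WIPI1 rose with GSK-A1, SQSTM1 fell, and GABARAP, MAP1LC3B2, WIPI2 and NBR1 did not pass the test. The 10th, MAP1LC3A, was close to 0 in both groups. A gene was called at an edgeR adjusted p under 0.05 over all 16754 genes tested. The 5 are 55.6% of the 9 tested. By the same rule 22.9% of all tested genes were called, 12.0% higher and 10.9% lower; higher genes were 52.3% of all calls, against 33.3% under upper-quartile library factors and 64.0% when each library's dependence on the GC content of transcripts (its GC trend) was removed. The median log2 fold change was 0.14 over the 9 tested genes and -0.01 over all tested genes. Without DMSO replicate 1 or 3, 2 of the genes were called. Without DMSO replicate 2 or GSK-A1 replicate 1 there were 3, and without GSK-A1 replicate 2 or 3 there were 6. GABARAPL1 and MAP1LC3B were called in each of these 6 fits. A change in every cell and a larger change in part of the cells cannot be told apart in RNA pooled from a culture.

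**Figure D1:**
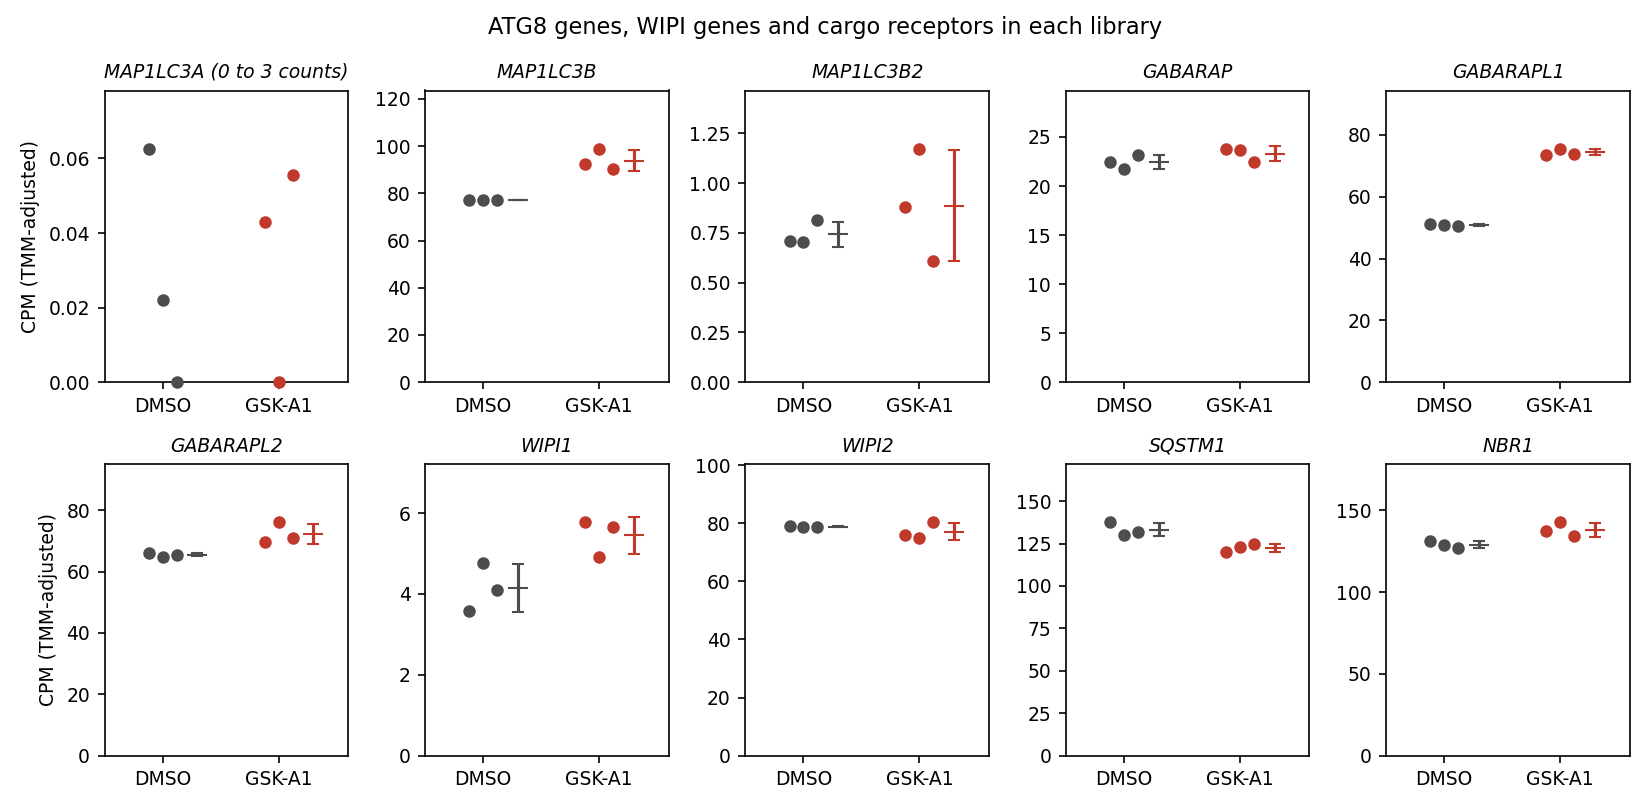
CPM (TMM-adjusted) of the 10 genes in each library, DMSO in grey and GSK-A1 in red, with the mean and SD of 3 libraries beside the points where the gene was tested. Each panel has its own axis from 0. The GSK-A1 points of GABARAPL1 (73.6 to 75.5 CPM) lie above its DMSO points (50.6 to 51.1 CPM), and MAP1LC3A has 0 to 3 counts per library.

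GABARAPL1, a GABARAP-type ATG8 protein, had the largest log2 fold change of the 9 tested genes. Its DMSO libraries, replicates 1 to 3 in order, held 51.1, 50.9 and 50.6 CPM, and its GSK-A1 libraries held 73.6, 75.5 and 73.9 CPM. Every GSK-A1 library lay above every DMSO library, and libraries of a group lay close together. The means were 50.9 ± 0.3 and 74.3 ± 1.0 CPM (SD, n = 3), a 1.46-fold rise. On the log2 scale the difference was 0.55 ± 0.04 (SE, with an edgeR adjusted p = 1.17e-07), which ranked 27 by p among the 16754 genes, and 5.50% of tested genes had a log2 fold change of larger size. The gene (ENSG00000139112) lies on the plus strand at chr12:10212458-10223130 of GRCh38. Of the 50-base stretches of its transcripts, 0.73% also occurred in the pseudogene GABARAPL3 of GENCODE 29 (ENSG00000238244), which had at most 1 count in any library. A gene on the opposite strand covering 8.05% of its exons had at most 0.029 CPM.

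MAP1LC3B encodes the LC3 protein most used as a marker of autophagosomes. It was nearly constant across the DMSO libraries, at 77.2 CPM in each, and its GSK-A1 libraries held 92.4, 98.8 and 90.4 CPM. The groups did not overlap, and GSK-A1 replicate 2 was the highest library. It rose 1.22-fold, by 0.28 ± 0.04 in log2 (SE; edgeR, adjusted p = 2.06e-04). Without GSK-A1 replicate 2 it was 0.25 and still called. Its gene (ENSG00000140941) lies at chr16:87383995-87404779 on the plus strand.

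GABARAPL2, also known as GATE-16, rose less. Its DMSO libraries held 65.9, 64.9 and 65.5 CPM and its GSK-A1 libraries 69.7, 76.0 and 70.9 CPM. The groups did not overlap, and GSK-A1 replicate 2 again was the highest library. The rise was 1.10-fold, 0.14 ± 0.04 in log2 (SE; edgeR, adjusted p = 0.0258). The call was lost without DMSO replicate 1, 2 or 3 (edgeR adjusted p = 0.0795, 0.108 and 0.0919) and under upper-quartile library factors (0.0863), with log2 fold changes between 0.10 and 0.18 over its 16 alternatives. The gene (ENSG00000034713) lies at chr16:75566351-75577881 on the plus strand.

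GABARAP, the founding member of its subfamily, stood at 22.5, 21.7 and 23.1 CPM with DMSO and at 23.8, 23.6 and 22.4 CPM with GSK-A1. The groups overlapped. The log2 fold change of 0.06 had a 95% interval from -0.06 to 0.17 (edgeR adjusted p = 0.493), beside 0.46 to 0.63 for GABARAPL1; the difference between the genes was not tested. GABARAP (ENSG00000170296) lies at chr17:7240014-7242770 on the minus strand. An annotated gene on the same strand covers 30.5% of the exonic length of GABARAP and was at 0 in all libraries; how reads of shared exons were assigned was not given in the sources used here.

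The other LC3 genes had few reads. MAP1LC3B2 (ENSG00000258102, chr12:116548105-116576448, plus strand), the near-copy of MAP1LC3B, had 22 to 41 counts per library. Its libraries held 0.709, 0.703 and 0.815 CPM with DMSO and 0.880, 1.17 and 0.610 CPM with GSK-A1, and the groups overlapped. The difference was 0.26 in log2, with an interval from -0.23 to 0.76 (edgeR adjusted p = 0.450), and 0.06 without GSK-A1 replicate 2. Of its 50-base stretches 15.1% occurred in transcripts of MAP1LC3B, so its few reads are uncertain. MAP1LC3A (ENSG00000101460, chr20:34546854-34560345, plus strand) had 3, 1 and 0 counts with DMSO and 2, 0 and 2 with GSK-A1, at or under a floor of 3 counts, and no fold is given. MAP1LC3C, outside the 10 genes, had 8 to 25 counts per library and did not pass (0.52 ± 0.36 in log2, SE; edgeR, adjusted p = 0.317).

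**Figure D2:**
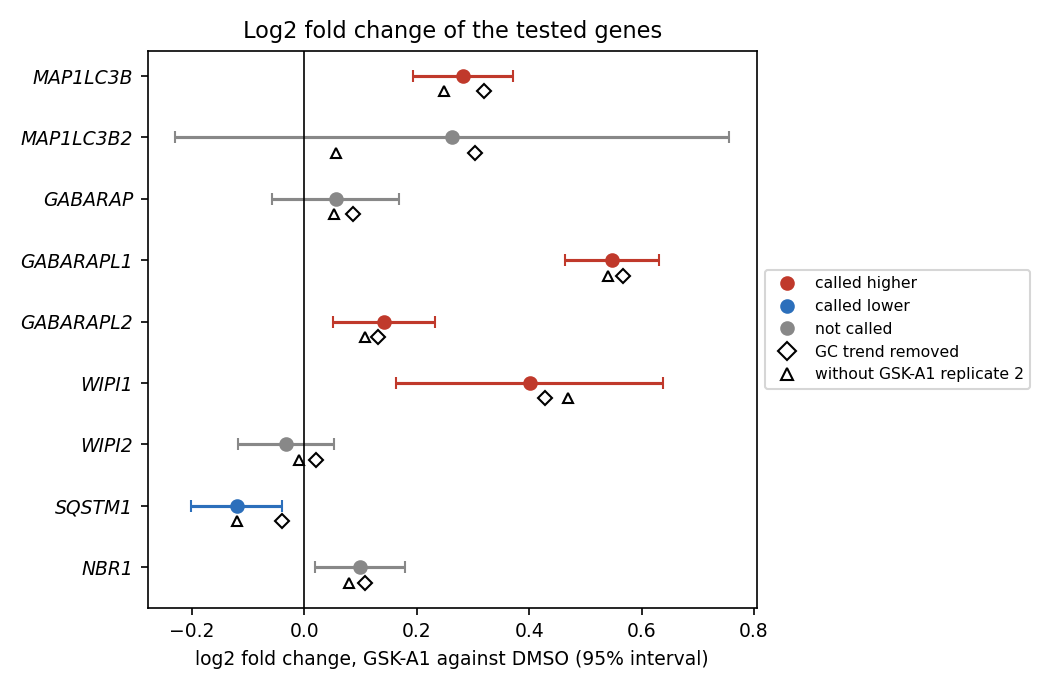
Log2 fold change of GSK-A1 against DMSO for the 9 tested genes, with 95% intervals from the edgeR fit on 3 libraries per group, red for called higher, blue for called lower and grey for not called. Open diamonds give the value with the GC trend of each library removed and open triangles the value without GSK-A1 replicate 2. GABARAPL1 at 0.55 lies farthest from 0, and the diamond of SQSTM1 at -0.04 lies nearer to 0 than its main value of -0.12.

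Because the ATG8 proteins share one conjugation machinery, the make-up of the family's RNA was read within each library. Levels were divided by exonic length and given as CPM per kilobase of annotated exon. With DMSO the order of mean levels was GABARAPL2 (21.6 ± 0.2), MAP1LC3B (14.5, with an SD of 0.0034), GABARAPL1 (12.4 ± 0.1), GABARAP (9.91 ± 0.30), MAP1LC3B2 (0.42 ± 0.04) and MAP1LC3A (0.02 ± 0.02; SD, n = 3). No neighbours in this order overlapped between DMSO libraries. The order depended on the division by exonic length: undivided, MAP1LC3B (77.2 CPM) stood above GABARAPL2 (65.4 CPM). GABARAP shares 30.5% of its exonic length with another annotated gene on its strand. How reads of those exons were assigned was not given, so its place in this order and its share below are uncertain. With GSK-A1, GABARAPL1 averaged 18.2 ± 0.2 and MAP1LC3B 17.7 ± 0.8 CPM per kilobase, and these 2 genes overlapped. Undivided, MAP1LC3B stood above GABARAPL1 with GSK-A1, at means of 93.9 and 74.3 CPM, without overlap. The sum over the 6 ATG8 genes was 58.9 ± 0.4 with DMSO and 70.5 ± 2.4 with GSK-A1.

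As a share of that sum, GABARAPL1 made up 21.1%, 21.3% and 20.9% in DMSO replicates 1 to 3 and 26.0%, 25.2% and 26.3% in GSK-A1 replicates 1 to 3. The gain was 4.70 percentage points, with no overlap between groups (exact two-sided permutation p = 0.1, the smallest that 3 against 3 libraries allow). It comes from the same libraries as the rise of GABARAPL1 in CPM and adds no separate support. The share of GABARAPL2 was 36.6% ± 0.1 with DMSO and 33.8% ± 0.6 with GSK-A1, and that of GABARAP was 16.8% ± 0.4 and 14.6% ± 0.5, although the mean CPM of both genes was not lower with GSK-A1. Shares sum to 100, so a gain of one gene lowers the sum of the others. MAP1LC3B held 24.7% ± 0.2 and 25.1% ± 0.3. The GABARAP genes together took 74.6% ± 0.2 and 74.2% ± 0.5, lower by an amount under the SD of the GSK-A1 libraries (-0.39 percentage points; p = 0.4, exact permutation test, two-sided). That difference turned to 0.17 when levels were not divided by length.

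**Figure D3:**
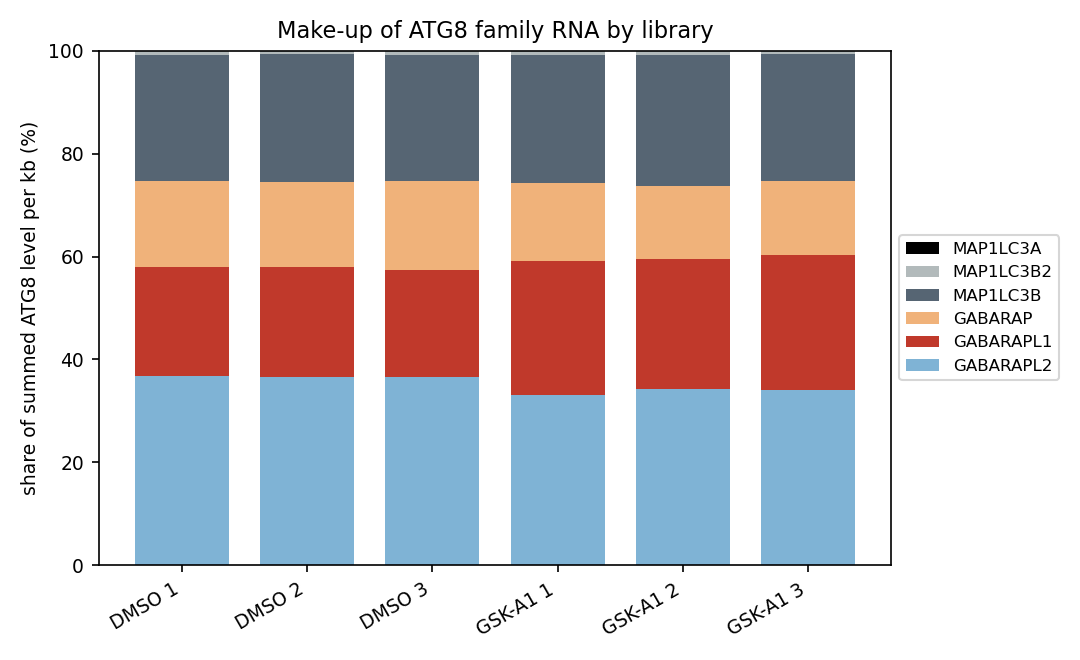
Share of each ATG8 gene in the summed level per kilobase of exon (percent, stacked to 100) in each of the 6 libraries. The band of GABARAPL1 is 20.9% to 21.3% in the DMSO libraries and 25.2% to 26.3% in the GSK-A1 libraries, while that of MAP1LC3B is 24.6% to 25.4%.

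WIPI1 rose and WIPI2 did not pass the test. The difference between WIPI1 and WIPI2 was not tested. WDR45B and WDR45 belong to the same family but were listed with ATG9 vesicles and lipid transfer. Neither was called in the edgeR fit. WDR45B differed by -0.09 in log2, with no overlap between groups (edgeR adjusted p = 0.0874). WDR45 differed by 0.09 in log2, with overlapping groups (edgeR adjusted p = 0.361). WIPI1 (ENSG00000070540, chr17:68420948-68457513, minus strand) stood at 3.59, 4.77 and 4.10 CPM with DMSO and 5.77, 4.92 and 5.66 CPM with GSK-A1. The lowest GSK-A1 library was just above the highest DMSO library. The rise was 1.32-fold, 0.40 ± 0.11 in log2 (SE; edgeR, adjusted p = 0.0173). The call was lost without DMSO replicate 1 (0.29, edgeR adjusted p = 0.116), DMSO replicate 3 (0.0605) or GSK-A1 replicate 1 (0.0803). ARSG, a sulfatase gene on the opposite strand, covers 24.3% of the exonic length of WIPI1 and fell from 10.9 ± 0.9 to 8.63 ± 0.40 CPM (-0.35 in log2; edgeR, adjusted p = 0.00422). Its part in the value of WIPI1 was not tested, and the strand setting of the counts was not given in the sources used here.

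WIPI2 (ENSG00000157954, chr7:5190188-5233826, plus strand) had 8.79 CPM per kilobase of exon with DMSO, against 1.22 for WIPI1. Its CPM stood at 79.1, 78.7 and 78.9 CPM with DMSO and 76.1, 74.9 and 80.3 CPM with GSK-A1, with overlapping groups. Its log2 fold change of -0.03 had a 95% interval from -0.12 to 0.05 (edgeR adjusted p = 0.604). The sign turned to 0.02 with the GC trend removed.

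Of the cargo receptors SQSTM1 fell slightly and NBR1 did not pass the test, and the call for each depended on the fit. SQSTM1 (ENSG00000161011, chr5:179806398-179838078, plus strand) stood at 137, 129.9 and 132 CPM with DMSO and 120.0, 123 and 125 CPM with GSK-A1. All GSK-A1 libraries lay below all DMSO libraries. It fell by 0.12 ± 0.04 in log2 (SE; edgeR, adjusted p = 0.0302). With each library's trend on GC content removed, it was -0.04 (edgeR adjusted p = 0.504) and SQSTM1 was no longer called; its longest transcript is 58.0% G and C, the highest among the 9 tested genes. The call was also lost without DMSO replicate 1, 2 or 3 (edgeR adjusted p = 0.153, 0.0593 and 0.0946) or GSK-A1 replicate 1 (0.157), and when every gene with a count was tested (0.0676). MRNIP, on the opposite strand, covers 20.7% of the exonic length of SQSTM1 and stood at 36.5 ± 1.8 CPM with DMSO and 32.8 ± 7.1 CPM with GSK-A1; its part in the value of SQSTM1 was not tested.

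NBR1 (ENSG00000188554, chr17:43170481-43211689, plus strand) stood at 131, 129 and 127 CPM with DMSO and at 138, 143 and 134 CPM with GSK-A1, again without overlap, as for 40.5% of all tested genes. Its log2 fold change of 0.10 ± 0.04 (SE) had an interval from 0.02 to 0.18 and did not pass the test (edgeR adjusted p = 0.0678). It passed once the GC trend was taken out (0.11, edgeR adjusted p = 0.0208) and without GSK-A1 replicate 2 (0.08, 0.0431) or GSK-A1 replicate 3 (0.12, 0.0455).

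The rest of the pathway was read from a list of 66 other autophagy genes in 8 steps, of which 65 were tested; the row the table names GABARAPL3 (ENSG00000279980, another ID than the pseudogene above) had 0 counts. This list too was chosen with earlier results of these data known. There were 15 called higher and 5 lower, 30.8% of those tested against 22.9% of all tested genes, with a median log2 fold change of 0.06. Under upper-quartile factors 10 were called higher and 7 lower, and with the GC trend removed 22 and 5. Leaving out DMSO replicate 1, 2 or 3 reduced the 20 calls to 11, 13 and 12. Of the ULK initiation complex, which starts the process, 2 of 5 genes were called, both higher. RB1CC1 (FIP200), its scaffold, rose from 82.1 ± 1.7 to 106.9 ± 8.8 CPM (SD, n = 3; 0.38 ± 0.05 in log2, SE; edgeR, adjusted p = 1.03e-04), and the kinase ULK2 rose by 0.16 ± 0.04 (edgeR adjusted p = 0.00638), a call lost without DMSO replicate 1 (0.0537). ULK1 differed by -0.0017 and was not called, but with the GC trend removed the value was 0.10 and called. Of the 8 genes of the class III PI3-kinase complex, which makes the lipid that WIPI proteins bind, 0 were called in the edgeR fit. The values there lay between -0.06 and 0.11, and 2 of the 8, BECN1 (0.09) and UVRAG (0.11), had an unadjusted p under 0.05; DESeq2 and limma-voom also called 0, and 1 gene was called with the GC trend removed or without GSK-A1 replicate 2. Of 7 genes of ATG9 vesicles and lipid transfer, the scramblase VMP1 alone was called in the edgeR fit, at 67.9 ± 1.0 and 79.4 ± 3.4 CPM (0.23 ± 0.04, edgeR adjusted p = 0.00137). In alternatives ATG2A was called higher with the GC trend removed, WDR45 higher and WDR45B lower without GSK-A1 replicate 2, and WDR45B lower under upper-quartile factors. WDR45 was also called higher when the GC trend was removed and replicate number was fitted.

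In the machinery that trims and conjugates ATG8 proteins, 3 of 11 genes rose and 1 fell. These calls were 36.4% of the 11, against 22.9% of all tested genes. ATG5 rose by 0.18 ± 0.05 (edgeR adjusted p = 0.0111) and ATG12, which is joined to ATG5, by 0.15 ± 0.04 (0.0251). ATG7, the E1-like enzyme that activates both ATG12 and ATG8 proteins, fell by 0.20 ± 0.06 on the log2 scale (edgeR adjusted p = 0.0269), from 16.0 ± 0.4 to 14.0 ± 0.6 CPM. Without DMSO replicate 1 or 3 none of these 3 genes was called. ATG7 was also lost without DMSO replicate 2 or GSK-A1 replicate 3 and by DESeq2, and ATG12 with the GC trend removed and under upper-quartile factors. VGLL4 on the opposite strand, at 59.6 CPM with DMSO, covers 18.1% of the exonic length of ATG7; its part in that value was not tested. The protease gene ATG4A was also called higher (0.21 ± 0.07, edgeR adjusted p = 0.0426). That call was lost in 8 of 16 alternatives, among them each fit without a DMSO library and those without GSK-A1 replicate 1 or 2. ATG3, ATG4B, ATG4C, ATG4D, ATG10, ATG16L1 and ATG16L2 were not called, though ATG4D was called higher in 3 of 16 alternatives.

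Other cargo receptors were called in both directions, 5 higher and 2 lower of 16. Together that was 43.8% of the 16, against 22.9% of all tested genes. With the GC trend removed 7 were called higher and 2 lower. OPTN (0.17), TAX1BP1 (0.11) and CALCOCO1 (0.09) were not called in the edgeR fit. They were called higher in 4, 3 and 1 of 16 alternatives. CALCOCO2 (NDP52), a receptor for bacteria and mitochondria, rose from 84.4 ± 3.7 to 101.5 ± 2.9 CPM (0.27 ± 0.04, edgeR adjusted p = 4.08e-04). CCPG1, a receptor for the endoplasmic reticulum, rose from 9.75 ± 0.59 to 13.4 ± 1.6 CPM (0.45 ± 0.08, edgeR adjusted p = 0.00108). A readthrough gene on the same strand shares 38.7% of the exonic length of CCPG1 and was at 0 in both groups. How reads of the shared exons were assigned was not given in the sources used here. FKBP8, a receptor on mitochondria, fell from 317 ± 4 to 276.5 ± 11.5 CPM (-0.20 ± 0.04, edgeR adjusted p = 0.00128), a difference that was -0.10 with the GC trend removed and still called. The other calls were BCL2L13 (0.19), NCOA4 (0.12) and STBD1 (0.63, at 0.76 and 1.15 CPM) higher and TEX264 (-0.19) lower. Those of NCOA4 and STBD1 were lost whenever a DMSO library was left out, and under upper-quartile factors. That of NCOA4 was also lost with library totals only, that of STBD1 by limma-voom and without GSK-A1 replicate 1, and that of TEX264 without DMSO replicate 1 or 2. A readthrough gene at 0 counts shares 58.1% of the exonic length of STBD1, and the assignment of shared reads is unknown there as well. Of the 7 genes of autophagosome fusion, 0 were called in the edgeR fit or by DESeq2 or limma-voom. In the edgeR fit 1, TECPR1 (-0.14), had an unadjusted p under 0.05. TECPR1 was called lower without GSK-A1 replicate 1 and under upper-quartile factors, and PLEKHM1 was called higher with the GC trend removed.

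Of 10 transcription regulators linked to autophagy genes, 4 rose and 2 fell. The share called was 60.0% of the 10, against 22.9% of all tested genes. TFE3, which acts with TFEB on lysosome and autophagy genes, rose from 51.7 ± 3.0 to 64.2 ± 3.7 CPM (0.32 ± 0.05, edgeR adjusted p = 5.00e-04). KEAP1, which SQSTM1 binds and which holds NFE2L2 in check, fell from 79.2 ± 2.6 to 66.2 ± 1.3 CPM (-0.26 ± 0.04, edgeR adjusted p = 4.14e-04), a difference that shrank to -0.16 with the GC trend removed and was still called. ATF4 rose by 0.14 ± 0.03 (edgeR adjusted p = 0.00353), and by 0.21 with the GC trend removed. FOXO4 (0.20) and NFE2L2 (0.14) were also called higher and ZKSCAN3 (-0.24) lower, while FOXO1 (0.05), FOXO3 (-0.0031), MITF (0.10) and TFEB (0.19) were not called. TFEB was called higher in 2 of 16 alternatives. The call of NFE2L2 was lost whenever a DMSO library was left out, under upper-quartile factors and with library totals only, and that of ZKSCAN3 by DESeq2 and without DMSO replicate 2 or 3 or GSK-A1 replicate 1 or 3.

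**Figure D4:**
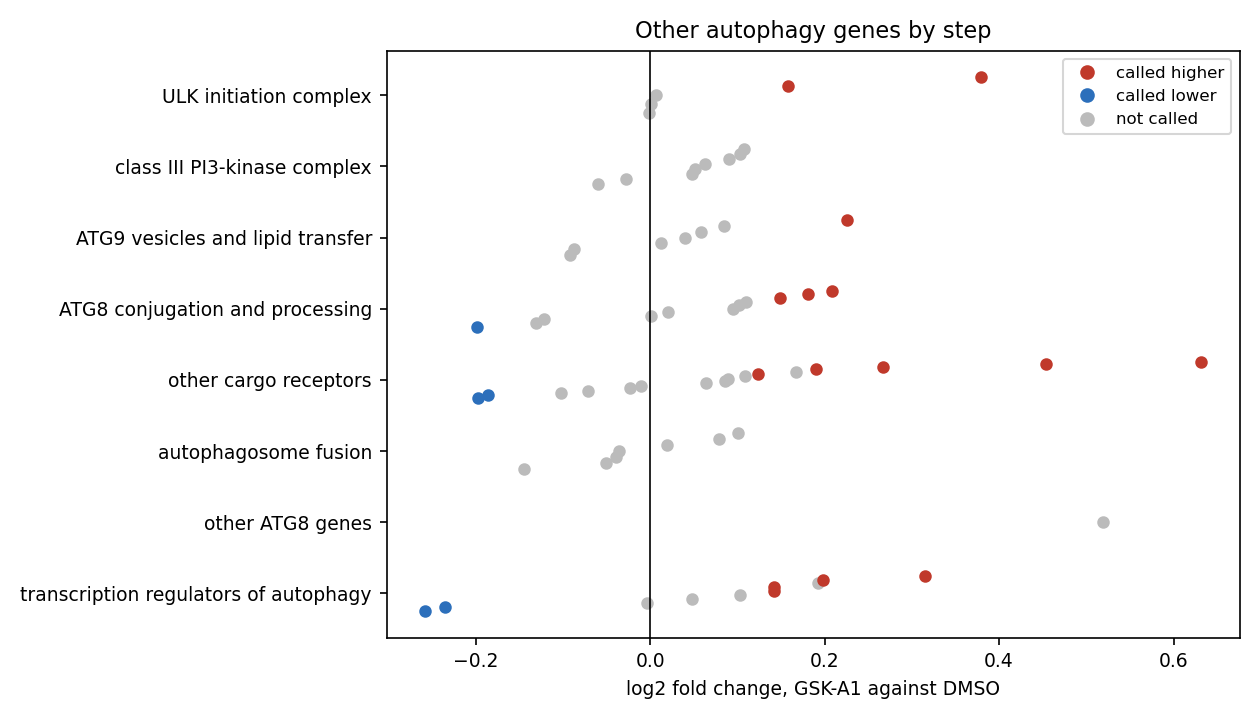
Log2 fold change of GSK-A1 against DMSO for the 65 tested genes of the wider autophagy list, 1 point per gene, grouped by step on the vertical axis. Red points were called higher (15 genes) and blue points lower (5 genes). No gene is called in the class III PI3-kinase and fusion groups, or in the group of other ATG8 genes, where MAP1LC3C alone was tested.

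The start regions were searched for short motifs known for factors of stress and growth responses. RefSeq windows on GRCh38.p14, 250 bases before to 50 after a start site, were given for 9 of the 10 genes, 13 windows in all. The motifs were CACGTG (CLEAR or E-box), GTAAACA (FOXO), TGACNNNGC (antioxidant element), TGACGTCA (cyclic AMP and ATF element), TGATGNAAT (ATF4 element), TGANTCA (AP-1) and GCGNGGGCG (EGR), on both strands. The antioxidant and ATF elements begin with the same letters, and no matches overlapped in these windows. The windows of GABARAPL1, MAP1LC3B and WIPI1, which rose and held a match, are printed 5′ to 3′ along the gene, with the match in capitals.
GABARAPL1, chr12:10212627-10212926, plus strand: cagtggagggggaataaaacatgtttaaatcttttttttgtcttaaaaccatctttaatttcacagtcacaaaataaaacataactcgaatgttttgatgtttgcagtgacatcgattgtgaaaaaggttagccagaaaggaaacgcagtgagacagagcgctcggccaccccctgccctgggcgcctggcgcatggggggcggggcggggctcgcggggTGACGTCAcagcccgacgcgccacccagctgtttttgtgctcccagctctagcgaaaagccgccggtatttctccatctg
MAP1LC3B, chr16:87392086-87392385, plus strand: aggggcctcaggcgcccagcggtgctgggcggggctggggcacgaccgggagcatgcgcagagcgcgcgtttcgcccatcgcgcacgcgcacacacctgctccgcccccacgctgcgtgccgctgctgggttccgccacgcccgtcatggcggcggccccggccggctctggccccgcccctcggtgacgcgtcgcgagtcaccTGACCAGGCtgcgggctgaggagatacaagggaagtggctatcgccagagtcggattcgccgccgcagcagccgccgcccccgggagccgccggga
WIPI1, chr17:68457447-68457746, minus strand: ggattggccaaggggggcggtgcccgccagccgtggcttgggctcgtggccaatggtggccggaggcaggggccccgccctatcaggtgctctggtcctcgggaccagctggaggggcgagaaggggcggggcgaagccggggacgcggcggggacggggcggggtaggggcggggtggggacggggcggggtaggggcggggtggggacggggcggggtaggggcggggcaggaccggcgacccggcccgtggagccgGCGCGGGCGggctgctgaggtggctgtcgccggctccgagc
GABARAPL1 held the whole palindrome TGACGTCA, beginning 30 bases before the start site. This motif was in 1 of the 13 windows and in 1.85% of all 35116 windows of this length. MAP1LC3B held an antioxidant-type match, a motif in 1 of the 13 windows against 13.4% of all windows. WIPI1 held an EGR-type match, as did GABARAP and 1 window each of WIPI2 and SQSTM1, 4 of 13 windows against 9.43% of all windows. Those 4 windows were 59.3% to 79.7% G and C, and the other windows of these genes 44.0% to 77.0%. The CLEAR, FOXO, ATF4 and AP-1 motifs, found in 7.26%, 3.42%, 0.99% and 7.71% of all windows, were in 0 of the 13. The window of GABARAPL2 held none of the 7 motifs. The search covered 7 motifs in 13 windows, and the number of matches that the rates over all windows would give was not computed. These matches are letters in a window, with no binding data behind them.

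Among the 5 genes most like GABARAPL1 across the 6 libraries, by Pearson correlation of log2 CPM among 12815 other genes with a symbol and a mean of at least 1 CPM, were RHOB, STAMBPL1, CDC42SE1 and DUSP1 (r = 0.9983 to 0.9995). RHOB encodes a small GTPase and DUSP1 a MAP kinase phosphatase. The log2 fold changes of these 4 genes, in the order first named, were 1.94, 0.23, 0.20 and 0.83, so the likeness is in the pattern over libraries, which share the treatment, and not in size.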

How the data were processed

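RNA-seq counts were analysed for 6 HEK293 libraries, 3 given DMSO and 3 given GSK-A1, grouped by the treatment label. The authors deposited raw counts per gene as whole numbers, 1 column per library. Per the submitters' processing notes, the tools included cutadapt 5.1, STAR 2.7.11b, featureCounts from Subread 2.1.1 and DESeq2 1.38.0, with build GRCh38.p13; strand setting, annotation release and filters were not given in the sources used here. Genes were tested with edgeR 4.0.16 in R 4.3.3: filterByExpr (smallest count 10, smallest total 15), TMM factors, robust quasi-likelihood F test, Benjamini-Hochberg adjustment over 16754 genes. Each SE was derived from the log2 coefficient and its F statistic, without shrinkage. Intervals are 95%. Lengths, overlaps and transcripts came from GENCODE 29, which may differ from the annotation counted. Shares were compared by exact permutation tests. Beyond the label of biological replicate nothing says how separate the cultures were, so p-values measure the spread between these libraries. The code was tested on simulated counts.

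The 10 genes and the wider list were chosen with earlier results of these data known. Named genes were all 10, up to 3 called genes per step with the smallest p, and those at 0, plus other genes of the wider list, added after their values were seen. Of the 5 genes most like GABARAPL1, 1 is not reported here. Alternatives were RLE, upper-quartile and no factors, 2 other filters, DESeq2 1.42.0, limma-voom (limma 3.58.1), the replicate block, a GC offset (loess, span 0.3, GC known for 96.1% of tested genes), the GC offset with the block, a threshold of 0.01, other lengths, and leaving out each library.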

Additional observations from a re-analysis of the deposited data

How the results depend on the processing

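Over the alternatives, GABARAPL1 (log2 fold change 0.51 to 0.57) and MAP1LC3B (0.24 to 0.32) kept their direction and their call in all 16. At an adjusted p under 0.01 the 5 called genes became 2, the 20 other autophagy genes 11, and the 3835 genes in all 1871. With 1 library left out these counts ranged from 2 to 6, from 11 to 24 and from 2163 to 4890; fewer samples were fitted. The sign of WIPI2 turned with the GC trend removed, without and with the replicate block (0.021 in both). The difference in the share of the GABARAP genes turned to 0.17 percentage points with no length. The gain of GABARAPL1 in share lay between 4.21 and 5.00 percentage points. Of 334 refits of 21 single genes, 301 kept direction and side of the threshold, 27 lost a call, 4 gained one and 2 reversed. MAP1LC3B2 got no adjusted p from DESeq2 and did not pass the 1-CPM filter.

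The replicate block gave 4127 genes in all, 5 of the 10 and 21 other autophagy genes, and changed no call among the 10. Same-numbered libraries deviated together only weakly (correlations of 0.011, 0.019 and 0.032, all under 0.1). Still, 5 of the 6 libraries, all but GSK-A1 replicate 1, correlated best with their own number. That is a hint from the data, not the design. The genes with the fewest reads were MAP1LC3A, MAP1LC3B2 and WIPI1, at 0 to 3, 22 to 41 and 136 to 269 counts per library; no fold could be given for MAP1LC3A.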
